A study of Drosophila melanogaster with 9 samples.

Results

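The post-meiotic and the mitotic regions of the Drosophila melanogaster testis, the late and the early end of spermatogenesis, were compared gene by gene. All samples titled post-meiotic and all titled mitotic were used, 3 of each, which made 6 of the 9 samples of the series, and all 18769 probe sets of the Affymetrix Drosophila Genome 2.0 array other than its 183 control probe sets. Every sample came from virgin males 6 to 10 days old of a wild-type strain from Tempe (TEMPE T), free of Wolbachia and with no transgene or treatment. The post-meiotic samples were the detached distal ends of testes and the mitotic samples were their apical tips, each pooled from 250 to 500 testes after removal of the seminal vesicles, with only a single region taken from any testis. The labels call the samples of a phase biological replicates. The regions were cut by position and not purified, so each also held the somatic cells at that place and germ cells of neighbouring stages. The third region of the series, enriched for meiotic cells, entered the fit only for its estimate of the spread. In such bulk samples fewer cells of a type and less RNA per cell cannot be told apart.

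In the fly testis, germline stem cells at the apical tip sit around a somatic hub, and their daughters divide as spermatogonia inside an envelope of cyst cells before they become spermatocytes. Spermatocytes grow, transcribe a large testis-specific programme under complexes known as tMAC and the testis TAFs, and store many of these transcripts for later translation. After meiosis the spermatids replace histones by protamines, build an axoneme and a mitochondrial derivative along a very long tail, and are freed from their cysts by caspase-dependent individualization. Transcription is mostly shut off in spermatids, and a small set of genes, the comets and cups, is known for transcripts made late.

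Values are log2 intensities after robust multi-array averaging (RMA), and a change is the post-meiotic mean minus the mitotic mean on that scale, given ± SE, so that a change of 1 is a doubling. Changes were tested with limma over all probe sets, two-sided, and a gene is said to have risen or fallen only with a Benjamini-Hochberg adjusted p under 0.05. By that rule 9309 probe sets rose and 5541 fell, 49.6% and 29.5% of those tested, while 3919 did not pass. A passing test was therefore the usual outcome here, at 79.1% of probe sets, and 80.7% had 3 post-meiotic arrays entirely on one side of the 3 mitotic arrays. The rises were small, with a median of 0.55, and the falls large, with a median of −1.49. Past a change of 1 the balance turned, with 2436 rises (13%) against 3795 falls (20.2%), and past a change of 4 there were 48 rises and 179 falls. The probe sets with a mean of at least 8 numbered 5380 in the post-meiotic phase and 6659 in the mitotic phase, whereas those of at least 12 numbered 693 and 521. The median change over all probe sets was 0.21 and it was 0.014 after cyclic loess scaling between arrays, which left 5873 rises and 5802 falls, so that many of the rises depended on the scaling. Counts of members below are read against these shares and against the 11981 genes with a name, each taken at its brightest probe set, of which 5545 rose, 4558 fell and the median change was 0.16. An exact test of 3 arrays against 3 cannot go below a p of 0.1, which is why only the fit across all probe sets is given.

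Pairs of arrays of the post-meiotic phase correlated at 0.993 to 0.996 over all probe sets, pairs of the mitotic phase at 0.997 to 0.998, and pairs across the phases at 0.826 to 0.843. The 3′ minus 5′ difference of the actin control probe sets was 1.21 to 1.39 in the post-meiotic arrays and 0.93 to 1.13 in the mitotic arrays. The same difference for GAPDH was 1.42 to 1.64 in the post-meiotic arrays and 1.09 to 1.23 in the mitotic arrays. This measure of RNA integrity thus differed between the phases, and its part in the results was not tested.

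Genes known from particular stages of spermatogenesis separated the regions, though not all in equal measure. The transcript of t-cup, a cup gene of elongating spermatids, had intensities of 12.17, 12.02 and 12.16 in the post-meiotic arrays, against 9.22, 9.15 and 8.92 in the mitotic arrays, a rise of 3.02 ± 0.09 (limma adjusted p = 8.62e-12). The comet gene schuy rose by 2.27 ± 0.11, and ProtB, a protamine that packs sperm DNA, rose by 1.73 ± 0.13. At the other end, bam, which ends the spermatogonial divisions, stood at 4.61, 4.72 and 4.56 in the post-meiotic arrays, against 9.32, 9.64 and 9.51 in the mitotic arrays, a change of −4.86 ± 0.12 (limma adjusted p = 2.39e-12). In both genes the phases lay far apart and the replicates close together. The post-meiotic values of bam lay under 5, near the floor of the array. Its partner bgcn fell only 2-fold (SE 0.09 on the log2 scale) and stayed above 10 in every array. The spermatocyte gene sa, a testis TAF8, fell by 2.55 on the log2 scale, and fzo, the mitofusin that merges spermatid mitochondria right after meiosis, fell by 2.01. The mitotic samples were not free of later stages: sa averaged 11.1 there and 11.2 in the meiotic samples, and ProtB was at 10.26 to 10.87 in every mitotic array. The label mitotic therefore names the apical region and not spermatogonia alone.

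**Figure D1:**
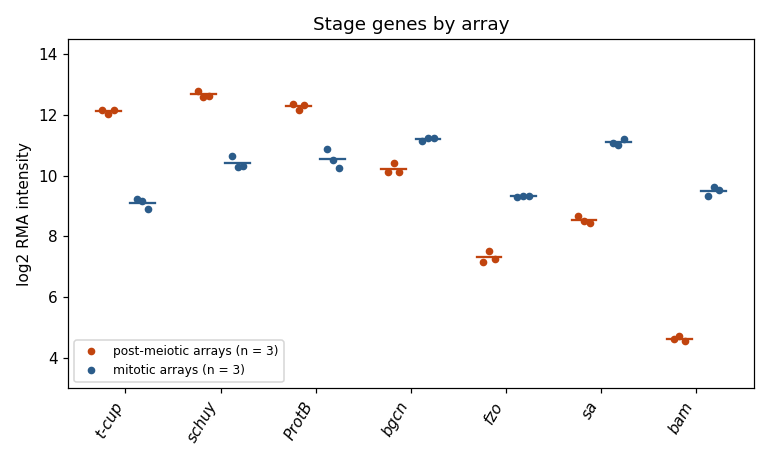
Intensity (log2 RMA) of 7 stage genes in each array, with post-meiotic arrays to the left and mitotic arrays to the right within each gene and a bar at the mean of 3. The genes t-cup, schuy and ProtB lie higher in the post-meiotic arrays and bgcn, fzo, sa and bam lower, with no overlap in any gene.

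Among probe sets with a single gene symbol, the largest rises were of genes whose transcripts were mostly dim in the apical tips and bright in the distal ends. The uncharacterized gene CG42827 led with 12.92, 12.18 and 12.45 in the post-meiotic arrays, against 7.41, 6.36 and 6.30 in the mitotic arrays, a 56.6-fold rise (5.82 ± 0.25, limma adjusted p = 1.87e-10). The genes CG17917 (5.61), CG42828 (5.56), CG18268 (5.40), CG7778 (5.12), CG5399 (5.10), CG14635 (5.07) and CG31296 (5.06) followed, all without a name. Of these, CG42828 lay under 5 in every mitotic array, near the floor of the array. Of the named genes the first was ana (anachronism), known for a glycoprotein that glia secrete to hold neuroblasts back from dividing, at 12.39, 12.11 and 12.17 in the post-meiotic arrays, against 6.86, 6.30 and 6.70 in the mitotic arrays. Its rise was 48.6-fold (5.60 ± 0.14, limma adjusted p = 2.02e-12). Several of the others encode transporters and enzymes of small molecules. The carbonic anhydrase gene CAH5 rose 33.2-fold, MFS9 of the major facilitator transporters 27.3-fold, the nutrient amino acid transporter NAAT1 21.5-fold and the ecto-nucleotidase NT5E-2 21.4-fold. Among them were also nahoda (25.4-fold) and Obp56d (22.7-fold), of the odorant-binding proteins. The remaining 3, the sodium and calcium exchanger Calx (4.54 ± 0.14), the LIM homeodomain transcription factor Lim1 (4.19 ± 0.10) and the carboxylesterase alpha-Est8 (4.16 ± 0.18), lay under 5 in every mitotic array, near the floor of the array, so that no fold is given for them. Lim1 was read at 8.10, 7.86 and 8.19 in the post-meiotic arrays, against 3.86, 3.79 and 3.93 in the mitotic arrays, where the lowest value of any probe set was 3.40. In the meiotic samples these 18 genes also stayed low, with means of 3.96 to 8.09.

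The largest falls at such probe sets ran deeper and were of genes that were bright in the apical tips. The largest of all, −7.97, was at a probe set without a single symbol, which is not named here. CG32259 had 5.14, 6.00 and 5.12 in the post-meiotic arrays, against 12.66, 12.65 and 12.78 in the mitotic arrays, a level 155-fold lower (−7.28 ± 0.18, limma adjusted p = 2.15e-12). CG42857 (−6.99), CG34434 (−6.77), CG43132 (−6.39), CG15056 (−6.22) and CG6244 (−5.97) were of the same kind. The named gene that fell the most was nsr, a testis RNA-binding protein gene, at 6.24, 6.14 and 6.17 in the post-meiotic arrays, against 12.88, 12.71 and 12.75 in the mitotic arrays (−6.60 ± 0.08, limma adjusted p = 2.50e-14). RpL37-2, a copy of a ribosomal protein gene, fell by 6.18, and the ATP synthase copies ATPsynepsilonL and ATPsynbetaL fell by 6.02 and 5.53. The nascent chain-associated proteins betaNACtes1 and betaNACtes4 fell by 6.00 and 5.67, and the bromodomain gene tbrd-2 and the testis TAF Taf12L by 5.73 and 5.61. Kots fell by 5.70 and holn1 by 5.58. The post-meiotic values of these 16 genes, which were chosen without overlap between the phases, lay between 4.51 and 7.23. Those of betaNACtes1 lay under 5 in every post-meiotic array, near the floor of the array.

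**Figure D2:**
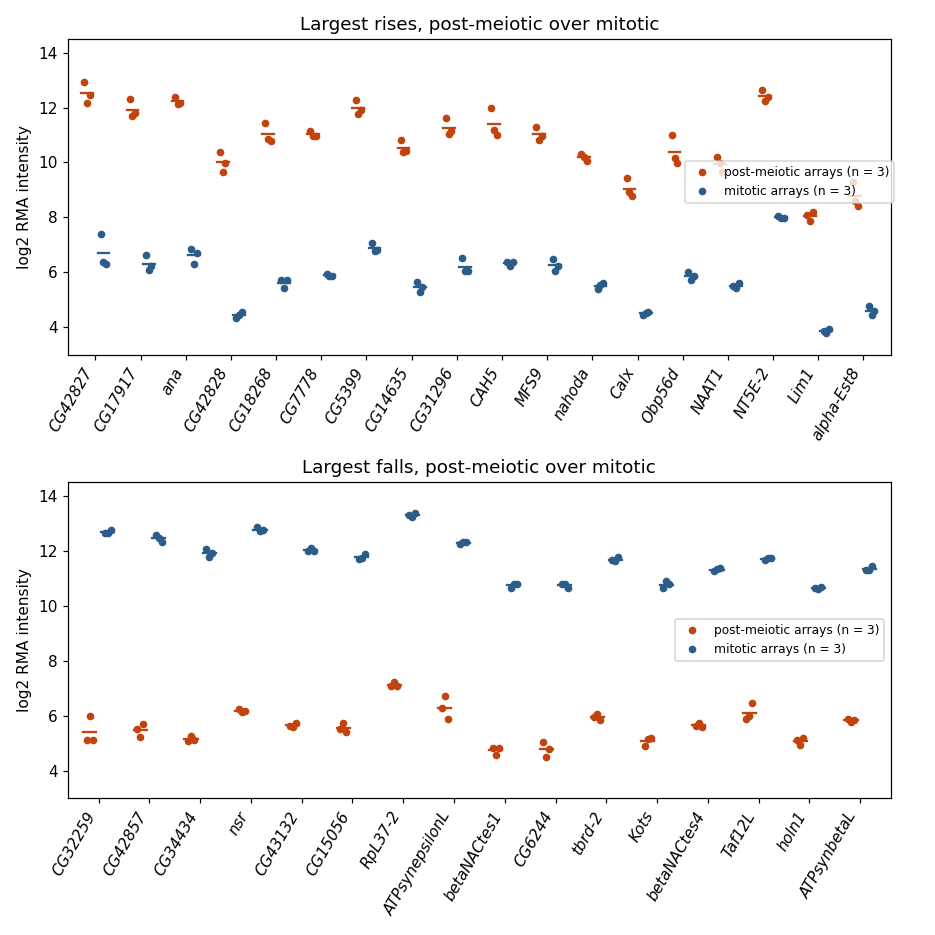
Intensity (log2 RMA) in each array of the genes with the largest rises (upper panel) and falls (lower panel), with post-meiotic arrays to the left and mitotic arrays to the right within each gene and a bar at the mean of 3. Among the falls every post-meiotic value lies between 4.51 and 7.23.

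Genes of the stem cells and spermatogonia, 17 of 18 measured, all fell in the post-meiotic samples, with a median of −3.41 against 0.16 over all named genes. After bam the largest falls were of Phf7 (−4.57 ± 0.16), a chromatin reader of male germ cell identity, of aub (−4.19 ± 0.16), an Argonaute of the piRNA pathway, and of its helper tej (−4.16 ± 0.12). Aub transcripts had 6.68, 7.29 and 6.90 in the post-meiotic arrays, against 11.00, 11.22 and 11.22 in the mitotic arrays. Genes of DNA replication fell in 18 of 19 cases, with a median of −1.97. PCNA, the sliding clamp of DNA polymerase, had 6.995, 6.84 and 6.73 in the post-meiotic arrays, against 10.80, 10.77 and 10.85 in the mitotic arrays (−3.95 ± 0.09), and the origin licensing genes dup (−3.07) and Mcm5 (−2.76) and the S phase cyclin CycE (−3.07) followed. The exception was Cdc45, of the replicative helicase, which rose by 0.55 ± 0.10. The genes of mitotic and meiotic division, 14 measured, all fell, with a median of −3.01. The chromosomal passenger borr was at 6.32, 6.33 and 6.25 in the post-meiotic arrays, against 11.43, 11.35 and 11.19 in the mitotic arrays, and fzy and mad2, which run and check the exit from metaphase, fell by 4.47 and 4.26. These 2 genes and Cks85A (−3.99), a subunit of cyclin-dependent kinases, still averaged 10.8, 11.0 and 10.6 in the meiotic samples. Of 13 nucleolar and ribosome biogenesis genes 12 fell, led by Nnp-1 (−4.44 ± 0.14), mod (−4.14 ± 0.12), Nopp140 (−4.08 ± 0.18) and Nop56 (−3.93 ± 0.10), and only Ns2, a nucleostemin-like GTPase, rose (0.96 ± 0.09). Under every scaling tried the medians of these lists stayed negative.

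The transcriptional machinery of the spermatocyte fell as a whole. All 16 genes of tMAC and the testis TAFs with their bromodomain partners fell, with a median of −3.80, the lowest of the process lists. The bromodomain gene tbrd-2 had 5.95, 6.08 and 5.85 in the post-meiotic arrays, against 11.67, 11.62 and 11.77 in the mitotic arrays. Next came Taf12L (−5.61 ± 0.12), wuc (−5.29 ± 0.13), of the LIN52 family, and kmg (−4.88 ± 0.10), a zinc finger protein that keeps somatic promoters silent in spermatocytes. At Taf12L the probe sets of the gene did not all give the same call. Of 14 genes of spermatocyte translation and chromosome pairing 10 fell and 2 rose, with a median of −2.29. Rbp4, an RNA-binding protein of spermatocytes that represses translation of cyclin B, had 7.56, 6.87 and 7.38 in the post-meiotic arrays, against 12.77, 12.71 and 12.84 in the mitotic arrays (−5.50 ± 0.14, limma adjusted p = 2.72e-12). The double-stranded RNA-binding gene blanks (−4.35), tef (−4.001), needed to pair autosomes, and vret (−3.87), of the piRNA pathway, also fell. The 2 rises were of mei-S332 (1.62 ± 0.09), the shugoshin that protects centromeric cohesion, and of bol (0.59 ± 0.09), an RNA-binding protein needed for meiotic entry. The rise of bol was lost under cyclic loess (0.084, adjusted p = 0.41), and its probe sets disagreed.

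Genes of spermatid differentiation rose, by less than the early genes fell, and most were already bright in the apical tips. All 8 genes of sperm chromatin rose, with a median of 1.29. Mst84B had 13.15, 12.96 and 13.09 in the post-meiotic arrays, against 11.00, 10.76 and 10.66 in the mitotic arrays (2.26 ± 0.10), and ProtB (1.73), Prtl99C (1.48) and ProtA (1.30), all of sperm DNA packing, rose in the same way. After cyclic loess 7 of the 8 rose and 1 fell. Of 17 comet and cup genes 14 rose, none fell and the median was 1.09. Besides t-cup and schuy the largest rises were of sunz (1.64 ± 0.13) and s-cup (1.53 ± 0.15). Of 19 genes of sperm tail structure 18 rose and the median was 0.87. The axonemal filament gene Tektin-A had 12.38, 12.40 and 12.39 in the post-meiotic arrays, against 10.43, 10.22 and 10.09 in the mitotic arrays. It was followed by Mst36Fa (2.14 ± 0.12), by dj (1.85 ± 0.11), which encodes a sperm mitochondrial and nuclear protein, and by its relative djl (1.66 ± 0.13). The tail list was the one of these most open to scaling, since cyclic loess left 10 rises and 6 falls and a median of 0.48. Of 15 genes of axonemal dyneins and their assembly 11 rose and 1, tilB (−1.24 ± 0.09), needed to assemble dynein arms, fell, and the median was 0.66. The heavy chain genes kl-3, Dnah3 and Dhc36C rose by 2.70, 2.24 and 1.94. This list also held wtrw (1.97 ± 0.10), which encodes a TRP channel and not a dynein. The 6 Y-linked genes measured all rose, with a median of 1.92, while all 6 had mitotic means under 8. ORY had 8.37, 8.58 and 7.89 in the post-meiotic arrays, against 4.82, 4.92 and 5.02 in the mitotic arrays (3.36 ± 0.16, limma adjusted p = 5.61e-10). Next were kl-3, at 7.47, 7.98 and 6.91 in the post-meiotic arrays, against 4.87, 4.60 and 4.79 in the mitotic arrays, Pp1-Y2 (2.23 ± 0.09), a phosphatase, and ARY (1.61 ± 0.08). Post-meiotic and mitotic arrays did not overlap in any of those named here. In the mitotic arrays kl-3 lay under 5, near the floor of the array.

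Individualization and caspase genes went both ways, 8 up and 8 down of 20, with a median of 0.17. The largest rise was of klhl10, the adaptor of the Cullin-3 ligase that allows caspase activation in spermatids, with 11.65, 11.29 and 11.07 in the post-meiotic arrays, against 8.54, 8.35 and 8.72 in the mitotic arrays (2.80 ± 0.13, limma adjusted p = 4.92e-10). The largest falls were of the caspase Dcp-1 (−2.46 ± 0.12), the apoptosome scaffold Dark (−2.34 ± 0.10) and the adaptor Fadd (−2.25 ± 0.12). Of the other caspases in the list Dronc fell (−1.55 ± 0.10) and Dredd rose (0.47 ± 0.11), both named after their values were seen. With 8 members on each side, this list showed no common direction, and without probe sets open to cross-hybridization its median was −0.49.

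Ribosomal protein and general proteasome genes fell almost throughout. All 71 mitochondrial ribosomal protein genes fell, with a median of −2.34, from mRpL19 (−4.24 ± 0.10), mRpS29 (−3.94 ± 0.10), mRpS26 (−3.67 ± 0.08) and mRpL38 (−3.66 ± 0.08) at the low end to −0.34 at the high end. In mRpL19 the intensities were 7.31, 7.32 and 6.98 in the post-meiotic arrays, against 11.38, 11.51 and 11.44 in the mitotic arrays. Among 34 cytosolic ribosomal protein genes 32 fell, with a median of −1.73. The gonad-biased copies RpS5b (−4.56 ± 0.10) and RpS10a (−3.53 ± 0.09) fell the most, then RpLP0 (−2.50) and RpL34a (−2.27). Against the others, RpS28a rose by 2.05 ± 0.11 and RpL10Aa by 1.72 ± 0.09. The general proteasome subunits fell in 25 of 26 cases, with a median of −1.65, among them Prosbeta2, at 8.99, 8.70 and 8.53 in the post-meiotic arrays, against 12.77, 12.63 and 12.78 in the mitotic arrays. Prosalpha6 (−3.96), Prosbeta4 (−3.96) and Prosbeta5 (−3.01) followed. The testis-specific subunits were divided, with 5 rises and 7 falls among 13 and a median of −0.38, which cyclic loess turned to 0.25. Prosbeta2R2 (−2.79 ± 0.13), Prosalpha4T1 (−2.22 ± 0.11) and Rpt4R (−1.88 ± 0.10) fell, and Prosbeta5R1 (1.90 ± 0.11), Prosalpha4T2 (1.42 ± 0.10) and Prosalpha6T (1.39 ± 0.08) rose.

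Energy metabolism was split by kind. Of 13 glycolytic genes 10 rose, with a median of 1.23, led by the testis hexokinase Hex-t2, with 12.83, 12.72 and 12.75 in the post-meiotic arrays, against 10.63, 10.35 and 10.51 in the mitotic arrays (2.27 ± 0.09). Ald1 (2.07 ± 0.10), Hex-A (1.97 ± 0.08) and Hex-t1 (1.75 ± 0.10) rose as well, while Gapdh1 fell (−1.53 ± 0.08) and Pgk fell (−0.98 ± 0.10), the last not under cyclic loess (−0.19, adjusted p = 0.091). Of 72 genes of the respiratory chain and ATP synthase 49 fell, 16 rose and the median was −0.76. The list held the extremes on both sides in testis copies: ATPsynepsilonL and ATPsynbetaL fell by 6.02 and 5.53, and COX6AL2, ND-B14.5AL and COX6AL rose by 2.97, 2.92 and 2.62. ATPsynepsilonL had 6.27, 6.72 and 5.87 in the post-meiotic arrays, against 12.27, 12.34 and 12.32 in the mitotic arrays. COX6AL2 had 11.90, 11.68 and 11.55 in the post-meiotic arrays, against 8.84, 8.60 and 8.78 in the mitotic arrays.

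Nuclear and chromatin genes fell too. Nuclear pore genes fell in 22 of 24 cases, with a median of −2.45, and Nup50 (−3.86 ± 0.11), Nup93-1 (−3.27 ± 0.09), Nup35 (−3.17 ± 0.09) and mbo (−3.02 ± 0.10) fell the most. Only Ndc1, a membrane nucleoporin, rose (0.34 ± 0.08). Polycomb group genes, which keep developmental genes silent, fell in 11 of 12 cases, with a median of −2.38, including Caf1-55 (−3.61 ± 0.09), Sce (−3.59 ± 0.08), Asx (−2.78 ± 0.12) and Su(z)12 (−2.75 ± 0.17). The 6 dosage compensation genes measured all fell, with a median of −1.50, and the helicase gene mle had 5.91, 5.72 and 5.32 in the post-meiotic arrays, against 8.88, 9.24 and 9.08 in the mitotic arrays. Of 20 autophagy genes 15 fell and 3 rose, with a median of −0.56. Atg14 (−2.66), Atg18b (−2.15) and Atg6 (−1.93) were the lowest, and the rises were of Atg16 (1.59 ± 0.08), Atg8b (1.44 ± 0.10), a testis copy of the gene for the autophagosome marker, and Atg9 (0.30 ± 0.08). Heat shock chaperones were evenly divided, 5 up and 5 down of 11. The small chaperones Hsp26 (−3.74 ± 0.09) and Hsp27 (−2.22 ± 0.08) fell, and Hsc70-1 (2.98 ± 0.14) and Hsp60D (2.60 ± 0.12) rose, the median of −0.13 turning to 0.094 under cyclic loess. As a list not tied to germ cells, 112 odorant and gustatory receptors were measured at a log2 mean intensity of 5.81 to 5.99 in the post-meiotic arrays and 5.28 to 5.31 in the mitotic arrays. Of these 77 rose, with a median of 0.32 that was 0.031 after cyclic loess (17 rises, 13 falls), so most rises of that size were lost with the other scaling. Those of 1 or more were of Gr32a (2.75 ± 0.09), Gr61a (1.69 ± 0.08) and Or35a (1.01 ± 0.09). In these lists the probe sets of a gene did not all give the same call for fzy, s-cup, Dnah3, Ald1 and Or35a, besides Taf12L and bol. Testis copies that resemble each other, such as ProtA and ProtB or the Hsp60 genes, may share signal between their probe sets.

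**Figure D3:**
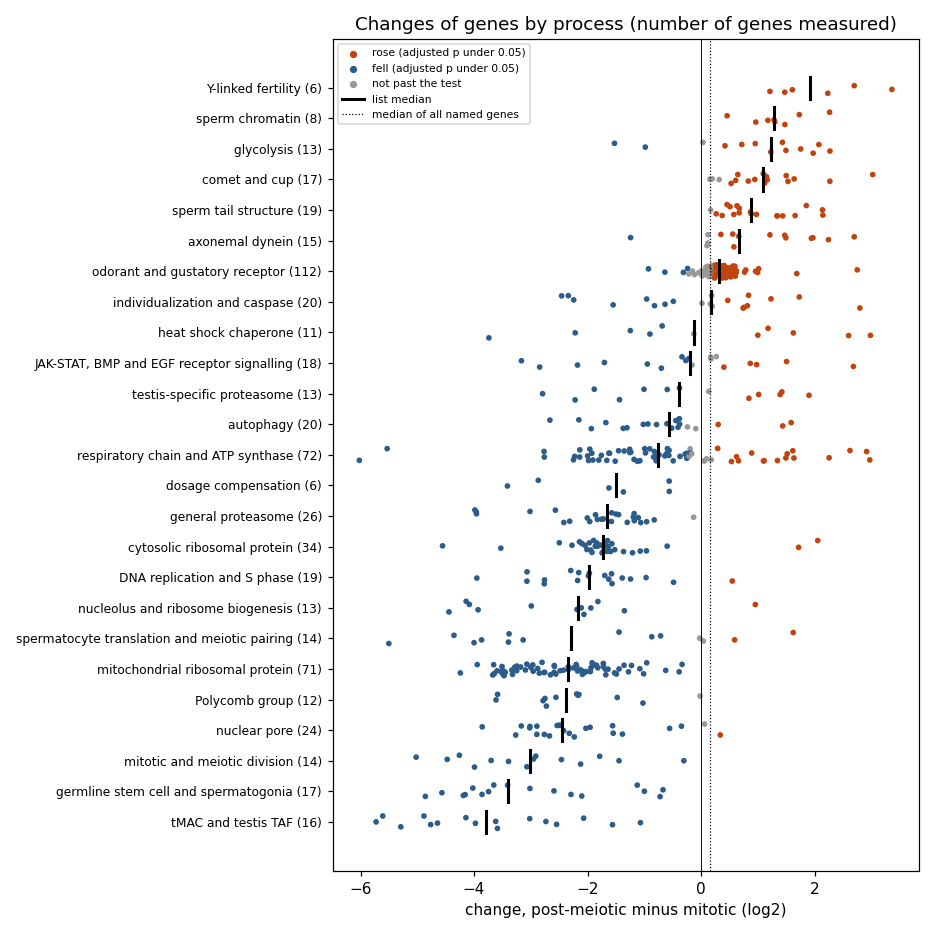
Change of each gene (post-meiotic minus mitotic, log2) by process list, with the number of genes measured in brackets, a bar at the list median and a dotted line at the median of all named genes. The median is −3.80 for tMAC and the testis TAFs at the bottom and 1.92 for the Y-linked genes at the top.

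Testis genes and general genes of the same family were then set side by side, as changes only, since levels of different probe sets cannot be compared. The general member need not be the gene that the testis gene derives from: for Uch-L5R and Prosbeta5R2 the parents listed with the study are Uch-L5 and Prosbeta5R1, while Uch and Prosbeta5 stood here. In 40 pairs with both members measured, 18 testis genes rose and 20 fell, with a median of −0.14, and of the 36 general genes 3 rose and 31 fell, with a median of −1.33. The testis change lay above the general change in 30 of the 40 pairs, and in 16 the testis gene rose while the general gene fell. The widest gaps with the testis gene above were at proteasome and phosphatase genes. Prosalpha6T rose by 1.39 ± 0.08 while Prosalpha6 fell by 3.96 ± 0.14, a gap of 5.35. For PpY-55A, a testis phosphatase, the change was 2.76 ± 0.10, against −2.50 ± 0.14 for Pp1alpha-96A, which also paired with PpD6 (1.55 ± 0.12). Prosbeta5R1 and Prosbeta2R1 stood 4.92 and 4.83 above Prosbeta5 and Prosbeta2, and tomboy40 (1.81 ± 0.08) stood 4.15 above the mitochondrial import pore gene Tom40 (−2.35 ± 0.09). The order was opposite in 10 pairs. In these the testis gene fell each time, while the general gene fell in 7, rose in 1 (Pen, 0.39 ± 0.08, against Kap-alpha1) and did not pass in 2. Examples are Taf12L against Taf12 (−5.61 and −0.98), nht against Taf4 (−4.77 and −0.82) and ATPsynbetaL against ATPsynbeta (−5.53 and −2.23). These 4 pairs were chosen after their values were seen. By size alone the gap of Taf12L and Taf12, −4.63, was wider than the 4.15 of tomboy40 and Tom40. Which member stood as the testis gene was set by the list of pairs and not by these data. For Kap-alpha1 and Pen that choice was not checked. Among the 91 retrogene and parent pairs listed with the study, of which some are also among those 40, 59 retrogenes rose and 28 fell, with a median of 0.79, while 25 of 88 parents rose and 51 fell, with a median of −0.41. For the 27 that moved from the X chromosome to an autosome, 18 rose and 8 fell, with a median of 1.11, against 4 and 22 of their parents, with a median of −0.82. For the 52 that moved between autosomes, 33 rose and 17 fell, with a median of 0.49, against 18 and 25 of their 51 parents, with a median of −0.20. The difference between the classes of movement was not tested.

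**Figure D4:**
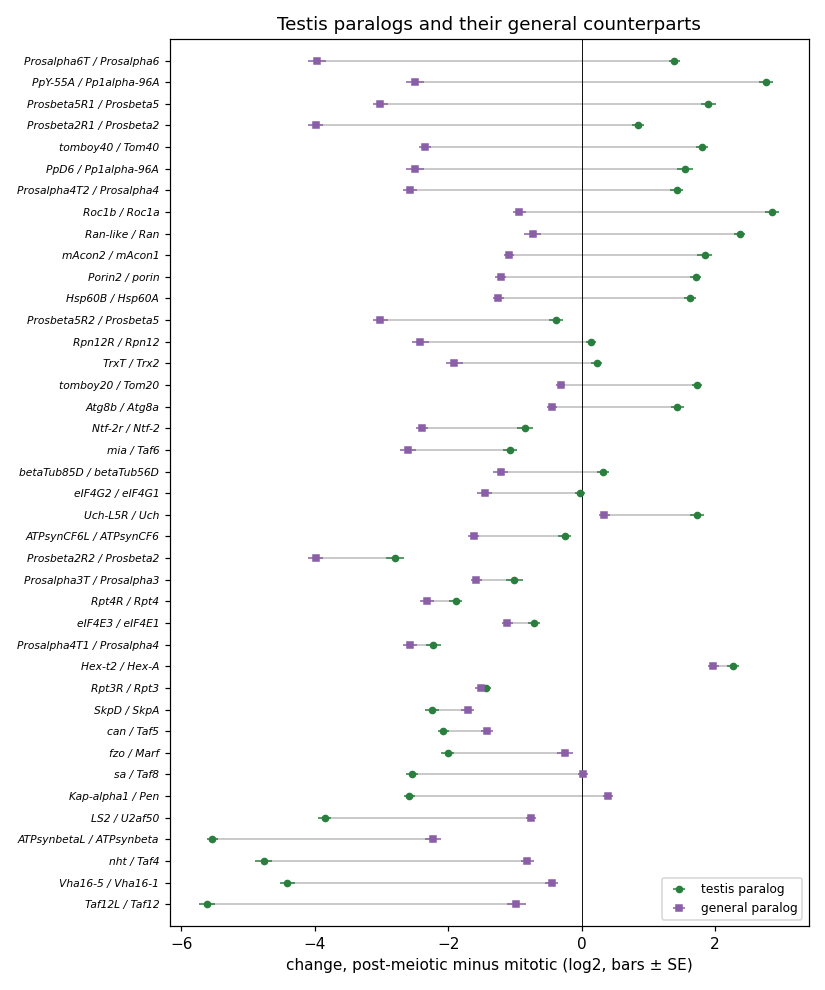
Change (post-meiotic minus mitotic, log2, bars ± SE) of 40 testis paralogs (circles) and their general counterparts (squares), ordered by the gap between them. The testis paralog lies to the right in 30 pairs, by 5.35 for Prosalpha6T and Prosalpha6.

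Signals of the stem cell niche and markers of somatic cells came next. Of 18 genes of JAK-STAT, BMP and EGF receptor signalling 9 fell, 5 rose and the median was −0.19 (0.019 under cyclic loess). The type I BMP receptor gene sax (−3.17 ± 0.10), Sos (−2.84 ± 0.14), an activator of Ras, and put (−2.18 ± 0.15), the type II receptor, fell. The BMP ligand genes dpp and gbb rose by 2.68 ± 0.19 and 1.51 ± 0.09, and Dad, an inhibitor that the pathway induces, by 0.98 ± 0.10. Ligand dpp had 9.50, 8.96 and 8.96 in the post-meiotic arrays, against 6.33, 6.65 and 6.39 in the mitotic arrays. Markers of hub and cyst cells moved apart, with 4 rises and 3 falls of 9 and a median of −0.05 (0.74 under cyclic loess). The niche ligand hh was at 7.78, 7.09 and 7.05 in the post-meiotic arrays, against 4.30, 4.53 and 4.36 in the mitotic arrays (2.91 ± 0.16), and so (2.09 ± 0.09), a homeobox gene of cyst cells, rose. All mitotic values of hh lay under 5, near the floor of the array. The early cyst and stem cell factors chinmo (−2.79 ± 0.14) and zfh1 (−2.05 ± 0.11) fell, as did the hub ligand upd1 (−0.27 ± 0.12), which lost its call when some single arrays were left out.

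Markers of the muscle sheath, which wraps the whole testis, all rose. In 10 of 10 genes, with a median of 2.24, the change ran from 0.60 to 2.76, and their log2 mean intensity was 10.81 to 10.87 in the post-meiotic arrays and 8.41 to 8.71 in the mitotic arrays. Act87E, a muscle actin, had 13.06, 12.91 and 12.89 in the post-meiotic arrays, against 10.57, 10.01 and 10.00 in the mitotic arrays (2.76 ± 0.14, limma adjusted p = 9.05e-10). The myosin light chains Mlc2 (2.70 ± 0.16) and Mlc1 (2.49 ± 0.14) and the titin-like bt (2.57 ± 0.16) rose alike. The ejaculatory duct and bulb markers gave EbpIII, at 12.05, 11.65 and 11.64 in the post-meiotic arrays, against 8.15, 7.88 and 7.79 in the mitotic arrays (3.84 ± 0.12), but Gld rose by only 0.75 ± 0.15, a call lost under cyclic loess (0.42, adjusted p = 0.051), EbpII fell by 0.38 on the log2 scale and Ebp, at −0.11 ± 0.15, did not pass. Of these 4, EbpII lay under 5 in all 6 arrays, near the floor of the array. Accessory gland genes gave 3 rises and 3 falls of 12, with a log2 mean intensity of 5.74 to 6.14 in the post-meiotic arrays and 6.14 to 6.19 in the mitotic arrays, and Acp36DE, a seminal fluid protein gene, was the only one with a large change (−3.29 ± 0.08). Pigment cell markers rose in 3 of 4 cases, ry (2.49 ± 0.10) the most, and hemocyte markers in 5 of 6, crq (2.32 ± 0.18) the most. Neuronal markers rose in 4 of 4, nSyb (2.26 ± 0.15) the most while elav stayed under 6 in all arrays, and tracheal markers in 3 of 3, none by 1 or more. Fat body markers rose in 5 of 8, apolpp (1.68 ± 0.10) the most, and antimicrobial peptides in 4 of 4, Drs (1.41 ± 0.16) the most. Basement membrane genes rose in 4 of 8, or 50%, near the 46.3% of all named genes that rose, and 2 fell. LanA, a laminin chain, fell (−2.15 ± 0.13) while LanB2 (1.28 ± 0.07) and Col4a1 (1.18 ± 0.11) rose. After cyclic loess 2 of the fat body and 2 of the pigment cell markers rose and 1 of each list fell, while 3 of the antimicrobial markers rose. Under the same scaling 1 of the ejaculatory markers rose and 2 fell, and 1 of the accessory gland genes rose and 5 fell. The sheath muscle markers thus moved together between the phases, while the accessory gland and the hub and cyst lists had no common direction. The part of somatic cells in the other results was not tested.

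**Figure D5:**
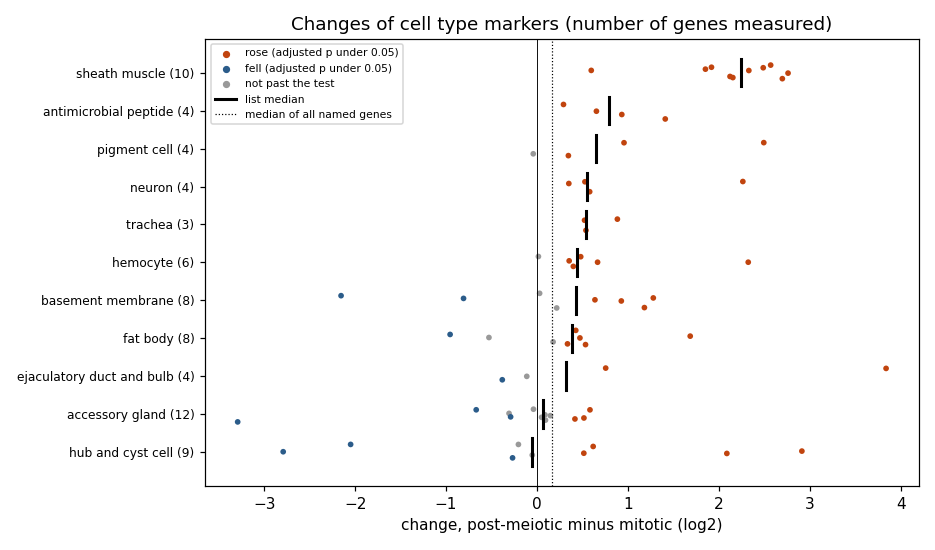
Change of each marker (post-meiotic minus mitotic, log2) by cell type, with the number of genes measured in brackets, a bar at the list median and a dotted line at the median of all named genes. All 10 sheath muscle markers rose, with a median of 2.24.

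By chromosome the shares that rose or fell by any size were much alike on the X and the autosomes. On the X, 962 of 2188 probe sets (44.0%) rose and 788 fell, with a median change of 0.14, and on the autosomes 5324 of 11351 (46.9%) rose and 4073 fell, with a median of 0.17. Large changes were less frequent on the X than on the autosomes in both directions. Rises of at least 2 made up 5.16% of probe sets on the X and 6.40% on the autosomes. Falls of at least 2 made up 9.64% and 12.5%. On 2L, 2R, 3L and 3R rises of at least 2 made up 5.69% to 7.55% and falls of at least 2 made up 12.4% to 12.6%. Over all probe sets the shares were 4.90% for rises and 9.65% for falls. Those shares include probe sets without a chromosome, since only 13548 of the 18769 had one. They are therefore no measure of whether the X stood apart. On chromosome 4 fewer rose, 30.5% of 82, and 41.5% fell. Of the 9 probe sets of the Y chromosome 7 rose and none fell. These shares are descriptions, and the differences between chromosomes were not tested.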

How the data were processed

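Testis regions were hybridized to Affymetrix Drosophila Genome 2.0 arrays, 3 per phase. The authors' deposited values are log2 intensities after RMA, so depth does not apply and the number of arrays limits the precision. Probe sets were named through the platform annotation and RefSeq: 13647 had 1 symbol and only these were named, 402 had several and 4720 none. List genes without such a probe set were not analysed here. All 9 arrays were fitted with limma 3.58.1 in R 4.3.3 (lmFit, eBayes, phase as the only term), with Benjamini-Hochberg adjustment over 18769 probe sets and a threshold of 0.05. The study's methods give no test for this pair of phases. Summaries used Python 3.11.15, pandas 2.3.3 and numpy 2.4.6, and figures matplotlib 3.10.9. Data were simulated for this comparison over 18769 probe sets, with 50 changed at each of the sizes 0.5, 1, 2 and 4. Of changes of 0.5, 54% were called, of 1, 98%, and of 2 or 4, 100%. Of the 187 calls 11 fell on probe sets left unchanged. In the real data 14850 probe sets passed, so the adjustment was not alike and these shares do not carry over.

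Members and lists were chosen with earlier results of these data known. Genes were named by rule: the 10 largest rises and falls without overlap between phases, also among genes with a proper name. The stage genes were named too. Within a list at most 4 were named by size of change and at most 3 that opposed its majority. Of the pairs, the 6 with the testis change furthest above the general change were named. Exceptions are marked. In lists a gene stood as its brightest probe set over all arrays. The promoter motifs planned were not searched. Alternatives were the 6 arrays alone, centred arrays, cyclic loess, a floor of 6 and a single probe set for each gene. Others were a trended robust variance, a replicate block and each array left out. A further alternative left out every probe set whose name ends in _s_at, _x_at or _a_at. Such probe sets are called open to cross-hybridization here by their name only, and their cross-hybridization was not tested.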

Additional observations from a re-analysis of the deposited data

How the results depend on the processing

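The count of rises depended on scaling. The 9309 rises, 49.6% of probe sets, became 5873 under cyclic loess. They were 5757 of the 12137 tested without probe sets under 6 in both phases (47.4%) and 5551 of the 11981 tested with 1 probe set per gene (46.3%), where fewer were tested, while falls stayed within 1.5 times of 5541 under all alternatives. The median change of 0.21 was 0.16 with 1 probe set per gene, 0.13 with centred arrays, 0.014 under cyclic loess and 0.13 without dim probe sets. Rises made up 62.7% of calls, 57.4% with centred arrays and 50.3% under cyclic loess, which shared 67.4% of the calls and gave 217 the opposite sign. Leaving out single arrays gave 8557 to 9699 rises, 5396 to 5587 falls and a median of 0.20 to 0.24. List medians reversed under cyclic loess for the testis-specific proteasome (0.25), heat shock chaperones (0.094), JAK-STAT, BMP and EGF receptor signalling (0.019), hub and cyst cells (0.74), the accessory gland (−0.11) and the ejaculatory duct (−0.038), and for the gene CecB (−0.11). They reversed for the accessory gland with centred arrays (−0.015), for hub and cyst cells without dim probe sets (0.23) and for individualization without probe sets open to cross-hybridization (−0.49). The causes were not tested.

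Same-numbered arrays of the 2 phases did not deviate together (correlations of 0.07, −0.05 and 0.02), and the main fit did not pair them. Whether same-numbered samples were collected or processed together cannot be told from these values. With the replicate block 9317 probe sets rose and 5559 fell.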

Other observations

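Gene families outside the lists above were formed by their symbols after values had been seen, and are given as descriptions. All 22 Mediator genes, which couple transcription factors to RNA polymerase II, fell, with a median of −2.34, and MED4 (−3.71 ± 0.14) and MED14 (−3.64 ± 0.10) fell the most. After cyclic loess 20 of them fell and 1 rose. Of 29 aminoacyl-tRNA synthetase genes 27 fell, with a median of −1.96, led by ArgRS (−4.44) and IleRS (−3.95), and the 2 rises were of the mitochondrial enzymes CysRS-m (1.83) and TrpRS-m (1.04). Of 12 Sm and LSm genes of spliceosomal and decay particles 11 fell, with a median of −2.25, SmB (−4.34) the most.

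Other families rose in larger part. Of 6 Idgf genes, for secreted chitinase-like growth factors, 5 rose and the median was 2.32, with Idgf4 (4.001) and Idgf3 (3.53) ahead and Idgf1 (−0.40) the exception, and cyclic loess gave the same 5 and 1 counts. Of 32 tetraspanin genes 22 rose, with a median of 0.78, including Tsp42Ed (3.85) and Tsp42Eg (3.69), and Tsp97E fell by 3.22. Of 11 genes of the tubulin tyrosine ligase-like family, which modify tubulin, 8 rose, TTLL6A (2.75) and TTLL1A (2.70) the most. The 31 vacuolar ATPase genes were split, 13 up and 15 down, between Vha36-2 (3.08) and Vha16-5 (−4.41).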
